A study of Rattus norvegicus with 105 samples.

Results

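Frontal cortex RNA from rats given low clozapine was set directly against frontal cortex RNA from rats given low haloperidol. The arrays were chosen by their labelled drug and dose level alone, which gave 10 low clozapine and 9 low haloperidol arrays, 19 of the 105 arrays in the series. Vehicle arrays did not enter the comparison. The wider series covers 3 experiments on rat cortex, and its title describes the drug treatment as chronic administration of neuroleptics. The same 2 drugs were also present at medium (9 clozapine, 9 haloperidol) and high (8 clozapine, 9 haloperidol) dose levels, beside 9 vehicle arrays. Dose levels are words with no amounts, so a low dose of 1 drug is not known to match a low dose of the other. The sources used here do not give the strain, sex or age of the animals, the length of treatment or the interval before tissue was taken. Nor do the labels say that each array stands for its own animal. The p-values therefore rest on the spread between arrays, some of which may be technical.

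Clozapine and haloperidol are antipsychotics of different chemical class, a dibenzodiazepine and a butyrophenone. Haloperidol, a typical antipsychotic, acts mainly as an antagonist of the dopamine D2 receptor. Clozapine, the prototype atypical antipsychotic, binds D2 receptors more weakly and also blocks serotonin, muscarinic, histamine and adrenergic receptors. The frontal cortex receives dopamine and serotonin fibres and holds glutamatergic pyramidal neurons, inhibitory interneurons, glia and vessels, whose RNA was measured together. In such tissue, fewer cells of a type and less RNA per cell cannot be told apart.

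Each array gave 1 intensity for each of 31099 Affymetrix probe sets. Medians of the deposited intensities lay between 810.687 and 960.973 per array, while means trimmed by 2% at either end ran only from 2500.68 up to 2500.74, so the arrays had been scaled to a common mean before deposit. Values below are log2 of quantile-normalised intensities with a floor of 32, and a difference is clozapine minus haloperidol on that scale. Levels of different probe sets cannot be set against each other. Precision is limited by how many arrays there were, and no detection calls were given.

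Markers of frontal cortex cells were measured in both groups. Of 18 cortical glutamatergic and layer markers, 16 were among the probe sets tested, as were 16 of 20 interneuron markers and 17 of 19 astrocyte markers. Of 17 markers of striatal neurons, 13 were also tested, and the cortex itself expresses several of them. A tested probe set is only one that passed the filter on mean intensity, which is not a detection call. These counts therefore cannot show whether transcripts of a cell type were present.

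The principal components of the 19 arrays separated arrays by sample number more than by drug. The numbers come from the titles and were divided here into 4 consecutive blocks, numbers 2 to 17, 18 to 31, 32 to 43 and 44 to 64. The labels mark no such borders. What the numbers stand for is not stated. The blocks hold 2, 2, 2 and 4 low clozapine arrays and 3, 2, 2 and 2 low haloperidol arrays. Within blocks each drug's arrays formed runs of consecutive numbers, such as 24 and 25 for clozapine and 28 and 29 for haloperidol. Each run holds 1 drug, so neither a block term in a fit nor differences within blocks can separate drug from run. Component 1 carried 28.0% of the variance, of which 75.8% lay between blocks and 0.077% between drugs. Component 2 carried 13.4%, with 72.4% between blocks and 3.61% between drugs. The 4 arrays numbered over 53 had the highest scores on component 1. They were clozapine replicates 9 and 10, with 34.3 and 24.3, and haloperidol replicates 8 and 9, with 27.6 and 41.2. Replicate numbers were assigned here within each group, in order of sample number.

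**Figure D1:**
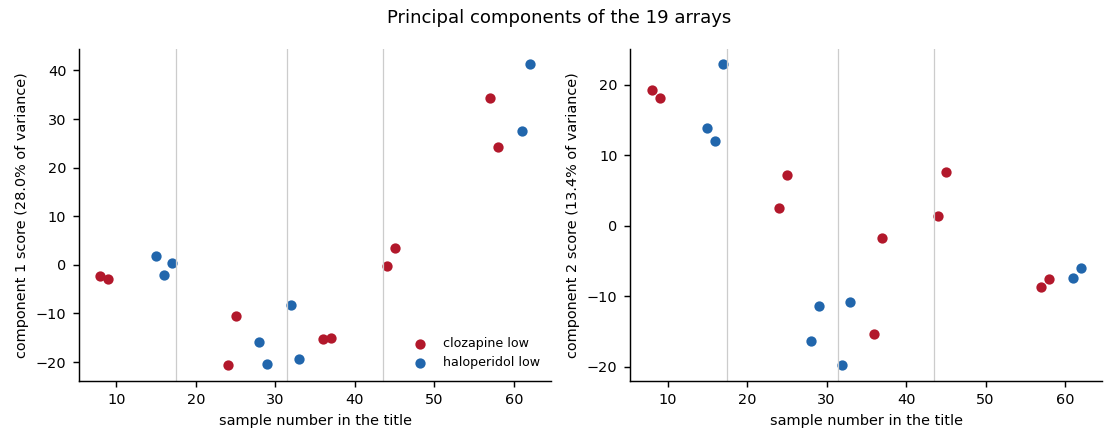
Scores of the 19 arrays on principal components 1 (left, 28.0% of variance) and 2 (right, 13.4%), against the sample number in the title; red, low clozapine, blue, low haloperidol, grey lines, block borders. On component 1 the 4 arrays with numbers over 53, 2 of each drug, stand above all others, and on component 2 all arrays of the lowest-numbered block stand above 12.

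No probe set passed the test between the drugs at the low dose level. limma with Benjamini-Hochberg adjustment called 0 of 18625 probe sets at an adjusted p under 0.05 (0%), and the smallest adjusted p was 0.634. At an unadjusted p under 0.05 there were 596 probe sets, 3.2% of those tested. Of these, 292 (1.57%) were higher and 304 (1.63%) were lower with clozapine. In 0 probe sets (0%) did the 10 clozapine arrays lie wholly above or below the 9 haloperidol arrays. With the 4 sample-number blocks as a term in the fit, limma again called 0, while 1572 probe sets (8.44%) had an unadjusted p under 0.05 and the smallest adjusted p was 0.302.

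The intervals show which sizes of difference the arrays leave in play. The median standard error was 0.092, and the median 95% interval reached 0.193 to either side of the estimate. For 91.7% of probe sets the whole interval lay within 0.5 of 0, and for 99.5% within 1. It lay within 0.25 for 48.2%. The median size of a difference was 0.055, and all differences lay between −0.92 and 0.73. Only 46 probe sets differed by over 0.5, and 0 by over 1.

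The genes with the smallest p are given as values, since none of them passed. Of the 20 probe sets with the smallest p, 3 had no single gene symbol, the first of them included. The 10 named genes with the smallest p in each direction differed by 0.18 to 0.83 in size, with standard errors of 0.050 to 0.18. Their adjusted p in limma with Benjamini-Hochberg adjustment lay between 0.634 and 0.9997. They were picked by p, so the separation between the drugs seen in them is a description of that choice.

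**Figure D2:**
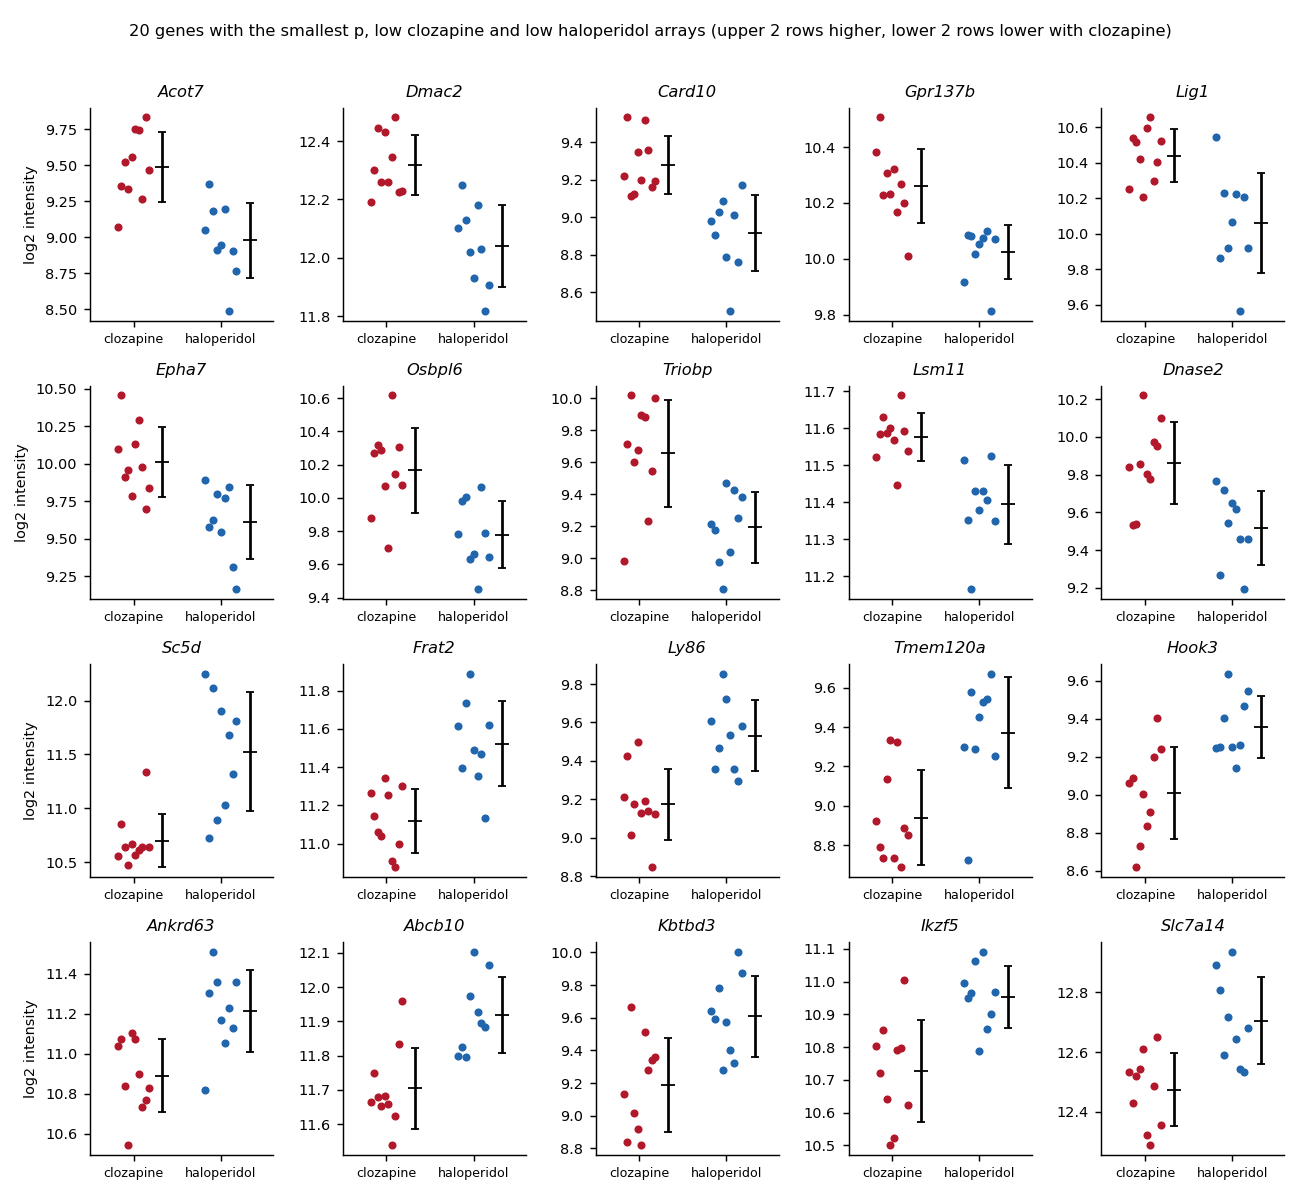
Log2 intensity on every low clozapine (red, left, n = 10) and low haloperidol (blue, right, n = 9) array for the 20 named genes with the smallest p; black marks, mean and SD, each panel with its own axis that does not start at 0. In 13 of the 20 panels all 10 clozapine arrays lie on 1 side of the haloperidol mean, yet the groups overlap in every panel.

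Among genes of metabolism and organelles, Acot7 had the smallest p of those higher with clozapine. It encodes a cytosolic acyl-CoA thioesterase that is abundant in brain. Acot7 ran from 9.07 (median 9.49) up to 9.83 on clozapine arrays and from 8.49 (median 8.95) up to 9.37 on haloperidol arrays. All 10 clozapine arrays lay above the haloperidol mean and 6 lay above every haloperidol array, for a difference of 0.51 (SE 0.11, 95% interval 0.28 to 0.74). The second probe set of Acot7 gave 0.01 (SE 0.06, interval −0.13 to 0.14), so the difference rests on 1 of 2 probe sets.

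Dmac2, an assembly factor of mitochondrial complex I, ran from 12.19 (median 12.28) up to 12.48 on clozapine arrays and from 11.82 (median 12.03) up to 12.25 on haloperidol arrays. Of the clozapine arrays, 7 lay above all haloperidol arrays, and the difference was 0.28 (SE 0.06). Its other probe set gave 0.09 (SE 0.07). Gpr137b, a lysosomal membrane protein, ran from 10.01 (median 10.25) up to 10.51 with clozapine and from 9.81 (median 10.07) up to 10.10 with haloperidol. Here 9 of 10 clozapine arrays exceeded every haloperidol array and 1 lay among the haloperidol arrays, for a difference of 0.24 (SE 0.06). Dnase2, the acid DNase of lysosomes, differed by 0.34 (SE 0.09), with clozapine arrays from 9.53 (median 9.85) up to 10.22 and haloperidol arrays from 9.19 (median 9.54) up to 9.77. Osbpl6, an oxysterol-binding family protein of lipid transport, differed by 0.39 (SE 0.10). Of its 4 probe sets the other 3 gave 0.13, 0.00 and −0.04.

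The remaining genes higher with clozapine have roles in signalling, the cytoskeleton and nucleic acids. Card10, a scaffold that links receptors to NF-kB, ran from 9.12 (median 9.21) up to 9.53 with clozapine and from 8.50 (median 8.98) up to 9.17 with haloperidol. With clozapine, 7 arrays exceeded every haloperidol array, for a difference of 0.36 (SE 0.08). Epha7, an ephrin receptor of axon guidance, ran from 9.70 (median 9.97) up to 10.46 with clozapine and from 9.16 (median 9.63) up to 9.89 with haloperidol, and differed by 0.40 (SE 0.11). Its second probe set gave 0.06 (SE 0.12). Triobp, an actin-bundling protein, differed by 0.46 (SE 0.13). Lig1, the DNA ligase of lagging-strand synthesis, differed by 0.38 (SE 0.10), and only 2 of its clozapine arrays exceeded all haloperidol arrays. Lsm11, a component of the U7 particle that processes histone transcripts, differed by 0.18 (SE 0.05), and its other probe set gave 0.17 (SE 0.09).

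Among genes lower with clozapine, Sc5d showed the largest difference of the 20. Its product, lathosterol oxidase, carries out a late step of cholesterol synthesis. Sc5d ran from 10.48 (median 10.64) up to 11.34 on clozapine arrays and from 10.73 (median 11.68) up to 12.25 on haloperidol arrays. The haloperidol arrays were spread more widely than the clozapine arrays, and 8 clozapine arrays lay below every haloperidol array. The difference was −0.83 (SE 0.18, interval −1.20 to −0.45). Of its other 2 probe sets, 1 gave −0.46 (SE 0.14, interval −0.75 to −0.18) and the one with the highest mean gave 0.07 (SE 0.06, interval −0.06 to 0.19). The probe sets of Sc5d therefore disagree.

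Frat2, which binds the kinase GSK3 in Wnt signalling, ran from 10.88 (median 11.10) up to 11.34 with clozapine and from 11.13 (median 11.49) up to 11.89 with haloperidol. All 10 clozapine arrays lay below the haloperidol mean and 5 below every haloperidol array, for a difference of −0.40 (SE 0.09). Ly86, the MD-1 partner of a B cell and macrophage surface receptor, ran from 8.85 (median 9.16) up to 9.50 with clozapine and from 9.29 (median 9.53) up to 9.86 with haloperidol. Of the clozapine arrays, 8 lay below all haloperidol arrays, and the difference was −0.36 (SE 0.08). The other microglia and immune markers did not share its direction as a group, with 7 of 15 higher and 8 lower.

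Tmem120a, a multi-pass membrane protein, differed by −0.43 (SE 0.11), with clozapine arrays from 8.69 (median 8.87) up to 9.33 and haloperidol arrays from 8.73 (median 9.45) up to 9.67. The haloperidol array at 8.73 lay among the lowest clozapine arrays. Hook3, an adaptor between cargo and the dynein motor, differed by −0.35 (SE 0.09), and its second tested probe set by 0.07 (SE 0.10). Abcb10, a mitochondrial inner membrane transporter, differed by −0.21 (SE 0.06) on 1 probe set and by 0.05 (SE 0.09) on the other. Slc7a14, a lysosomal amino acid transporter, differed by −0.23 (SE 0.07), and 7 of its clozapine arrays lay below all haloperidol arrays. Ikzf5, a zinc finger factor of the Ikaros family, differed by −0.23 (SE 0.06), against 0.02 and 0.13 on its other probe sets. Kbtbd3 and Ankrd63 differed by −0.42 (SE 0.12) and −0.32 (SE 0.09).

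The vehicle arrays lay mostly between the drugs. In 17 of the 20 genes the vehicle mean fell between the clozapine and haloperidol means, which is a description, since genes chosen for separated drug means leave a wide gap for a further mean to fall in. It was nearer to clozapine in 10 and nearer to haloperidol in 10 of the 20. Sc5d averaged 11.06 ± 0.46 on vehicle arrays (SD, n = 9), between the means of both drugs. Frat2 averaged 11.15 ± 0.18 on vehicle arrays, close to its median with clozapine. Acot7 averaged 8.94 ± 0.26 on vehicle arrays, close to its median with haloperidol. The sign of the difference was the same within all 4 sample-number blocks in 20 of 20 genes, on arrays that also chose the genes.

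Arrays at the other dose levels were not used to choose the 20 genes, but their drugs were not balanced by sample number. At medium and at high the highest-numbered arrays were all haloperidol. At low the highest-numbered arrays came from both drugs and stood apart on component 1. The last sample-number block holds the highest-numbered haloperidol arrays together with clozapine arrays of lower number. The part of this imbalance in the medium and high differences, here and below, was not tested. At the medium level 13 of 20 differences had the sign they had at the low level, against 57.8% over all probe sets, and at the high level 15 of 20, against 54.6%. In 11 genes the sign was shared by all 3 levels, against 40.3% of all probe sets. All 20 were smaller at medium and 19 of 20 were smaller at high. Sizes chosen as extreme at 1 level tend to look smaller at another, so this is no evidence about dose. In limma 3 of the 20 genes at medium and 0 at high combined the sign of the low level with an unadjusted p under 0.05, where 6.65% and 8.61% of all probe sets had such a p in either direction.

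Slc7a14, Kbtbd3 and Gpr137b had differences of 1 sign at all 3 levels, and these and the next 3 genes were singled out after their values were seen. Slc7a14 differed by −0.23 (SE 0.07) at low, −0.15 (SE 0.08) at medium and −0.23 (SE 0.14) at high. Kbtbd3 differed by −0.42 (SE 0.12), −0.28 (SE 0.19) and −0.33 (SE 0.23) at low, medium and high. Gpr137b differed by 0.24 (SE 0.06), 0.16 (SE 0.11) and 0.17 (SE 0.09). Ly86, in contrast, differed by −0.36 (SE 0.08) at low, 0.17 (SE 0.09) at medium and 0.02 (SE 0.12) at high. Card10 differed by 0.36 (SE 0.08), −0.09 (SE 0.12) and −0.01 (SE 0.12), and Sc5d by −0.83 (SE 0.18), 0.04 (SE 0.23) and −0.22 (SE 0.29).

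**Figure D3:**
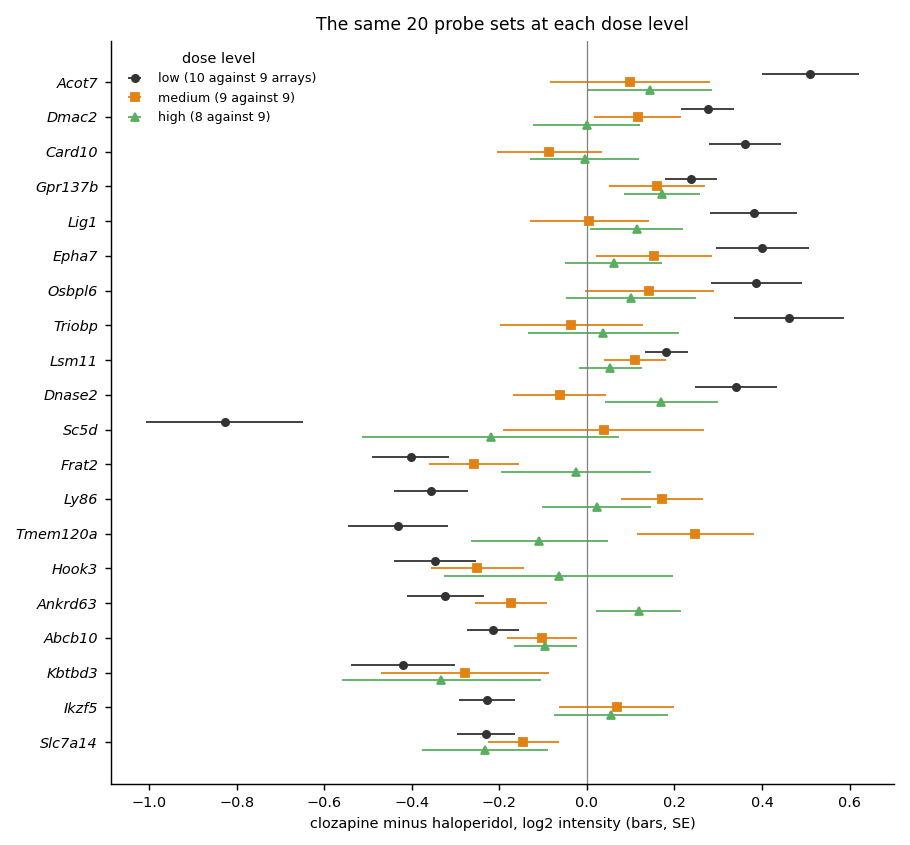
Clozapine minus haloperidol in log2 intensity at the low (black circles), medium (orange squares) and high (green triangles) dose levels for the 20 named genes with the smallest p at low; bars, SE. All 20 medium values lie nearer to 0 than the low value or across 0 from it, and 13 of 20 keep its sign.

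No probe set passed limma's test of whether the drug difference depended on dose level. The low minus medium difference called 0 of 18625 probe sets at an adjusted p under 0.05, with 362 (1.94%) at an unadjusted p under 0.05. The low minus high difference called 0, with 844 (4.53%) at an unadjusted p under 0.05 and a smallest adjusted p of 0.442. The drugs on their own arrays at the medium level gave 0 calls and 1238 probe sets (6.65%) at an unadjusted p under 0.05, and at the high level 0 calls and 1604 (8.61%). Across probe sets the differences at low and medium correlated at r = 0.278, at low and high at 0.216, and at medium and high at 0.544. These 3 values are descriptions over probe sets, which are not independent replicates, and the levels share no arrays. At both medium and high the highest-numbered arrays were all haloperidol, and the part of sample number in the value of 0.544 was not tested.

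None of the tested receptors that the drugs bind passed the test at the transcript level, and their intervals leave moderate differences possible. Drd2, the D2 dopamine receptor, ran from 8.86 (median 9.18) up to 10.22 on clozapine arrays and from 8.66 (median 8.99) up to 9.73 on haloperidol arrays. The groups overlapped, 7 of 10 clozapine arrays lay above the haloperidol mean, and the difference was 0.22 (SE 0.16, interval −0.10 to 0.55). Drd1, the D1 receptor, differed by −0.10 (SE 0.16, interval −0.43 to 0.23) on 1 probe set and by 0.08 (SE 0.17) on the other. Ddc, the enzyme that makes dopamine and serotonin from their precursors, differed by 0.17 (SE 0.12). Of 9 tested dopamine receptor and signalling genes 7 were higher and 2 lower with clozapine, 0 at an unadjusted p under 0.05, with a median of 0.07. Over all 10128 genes tested the median was 0.0095, 55.1% were higher, and 2.66% had an unadjusted p under 0.05.

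Htr2a, a serotonin receptor that clozapine blocks, ran from 11.67 (median 11.92) up to 12.15 with clozapine and from 11.47 (median 11.87) up to 12.70 with haloperidol. The clozapine arrays lay wholly inside the haloperidol range, for a difference of −0.08 (SE 0.13, interval −0.34 to 0.18). Htr2c differed by −0.05 (SE 0.09, interval −0.24 to 0.14). Htr1a, an inhibitory serotonin receptor, differed by 0.26 (SE 0.14, interval −0.02 to 0.55) and was the only higher member of 5. Chrm1, the main muscarinic receptor of cortex, differed by 0.16 (SE 0.17, interval −0.20 to 0.52). Hrh1 and Hrh3, histamine receptors, differed by 0.00 (SE 0.08) and 0.13 (SE 0.13), and the second probe set of Hrh3 by −0.21 (SE 0.11). Adra2a and Adra1b, adrenergic receptors, differed by −0.12 (SE 0.11) and 0.14 (SE 0.14). Of the 15 tested serotonin, adrenergic, muscarinic and histamine receptors, 0 had an unadjusted p under 0.05.

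Glutamate receptor subunits were lower with clozapine more often than higher. Of 13 NMDA, AMPA and kainate subunits 9 were lower and 4 higher, 0 at an unadjusted p under 0.05, with a median of −0.07. Over all 10128 genes tested 4550 were lower. The list median was below 0 in all 4 sample-number blocks, between −0.10 and −0.05, and the blocks divide the same arrays. At medium it was −0.03 and at high −0.0002. Grin2a, an NMDA subunit, ran from 12.93 (median 13.37) up to 13.92 with clozapine and from 13.14 (median 13.66) up to 14.25 with haloperidol. The ranges overlapped for most of their length, and the difference was −0.32 (SE 0.18, interval −0.70 to 0.05). Grin3a, another NMDA subunit, differed by −0.26 (SE 0.14). Grin1, which every NMDA receptor contains, differed by −0.07 (SE 0.13) and on its other probe set by 0.07 (SE 0.14), and Gria2, the AMPA subunit that sets calcium permeability, by 0.00 (SE 0.07, interval −0.14 to 0.15).

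Grm5, the metabotropic receptor mGlu5, was lower with clozapine at all 3 dose levels. At low it ran from 11.42 (median 11.63) up to 12.42 with clozapine and from 11.50 (median 12.14) up to 13.01 with haloperidol. Of the clozapine arrays 8 of 10 lay below the haloperidol mean, for a difference of −0.45 (SE 0.19, interval −0.85 to −0.05, adjusted p of 0.9997 in limma). At medium the difference was −0.49 (SE 0.18) and at high −0.32 (SE 0.24), on arrays not used at the low level. The highest-numbered of those arrays were all haloperidol, and the part of sample number in these differences was not tested. Its second probe set gave −0.37 (SE 0.21) at low. Grm3, the other named metabotropic receptor, differed by −0.11 (SE 0.13). The list had 4 of 6 members lower, 1 at an unadjusted p under 0.05, and its median of −0.06 was 0.06 within sample-number block 2. At medium the list median was 0.11 and at high 0.03.

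GABA-A receptor subunits split evenly, 4 higher and 4 lower of 8. Gabra2, an alpha subunit, differed by −0.27 (SE 0.12, interval −0.53 to −0.01), and was −0.08 at medium and −0.27 at high. Gabrg1, a gamma subunit, differed by 0.11 (SE 0.14). Voltage-gated channels gave 12 higher and 11 lower of 23, with 0 at an unadjusted p under 0.05. Scn1a, a sodium channel subunit, differed by 0.11 (SE 0.06) and Hcn3, a pacemaker channel subunit, by −0.14 (SE 0.13). Regulators of G protein signalling were higher in 11 of 14, with a median of 0.04. Rgs10 differed by 0.13 (SE 0.05) and Rgs6 by 0.15 (SE 0.07), and Rgs4, which is abundant in cortex, by 0.03 (SE 0.06, interval −0.10 to 0.16) and on its other probe set by −0.03 (SE 0.08).

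Synaptic genes showed single members with unadjusted p under 0.05 and no common direction. Of 21 presynaptic release genes 10 were higher and 11 lower. Syn2, a synapsin of vesicle membranes, differed by −0.15 (SE 0.07) and on its other probe sets by 0.02 (SE 0.05) and 0.03 (SE 0.07), and Vamp1, a vesicle SNARE, by 0.10 (SE 0.05). Of 20 postsynaptic scaffold genes 8 were higher and 12 lower. Dlgap2, a scaffold of the postsynaptic density, differed by −0.28 (SE 0.11), with 8 of 10 clozapine arrays below the haloperidol mean, and by 0.15 and 0.02 at medium and high. Nlgn2, the neuroligin of inhibitory synapses, differed by −0.27 (SE 0.13).

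**Figure D4:**
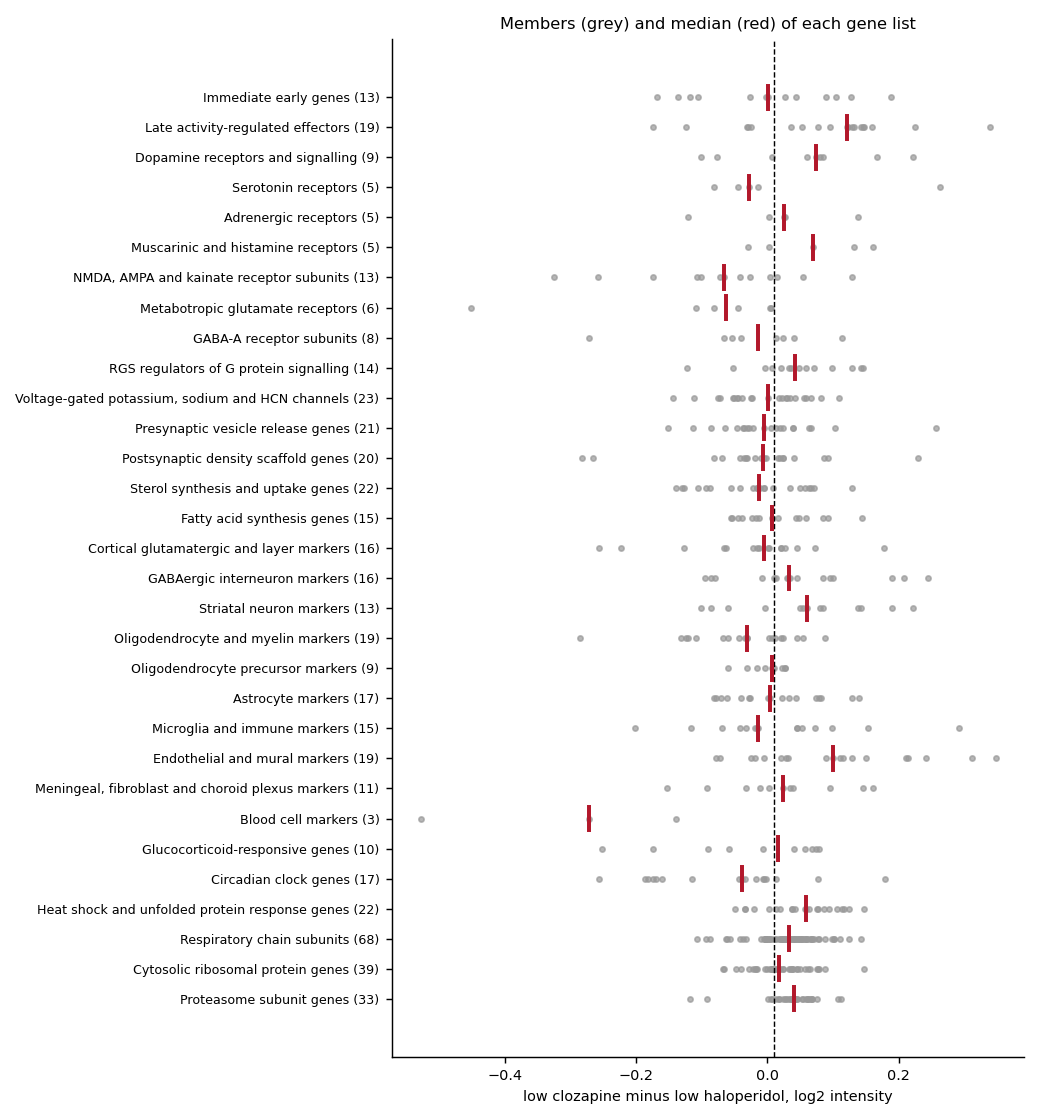
Low clozapine minus low haloperidol in log2 intensity for the members (grey points) of each of 31 gene lists, with the number tested in brackets; red bars, list medians, dashed line, median of all genes tested. The medians of 22 of 31 lists lie within 0.05 of 0, and the blood list of 3 genes lies farthest from 0.

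Over the 31 lists, 510 distinct genes were tested and 0 passed the adjusted threshold. At an unadjusted p under 0.05, 9 were higher and 7 lower with clozapine. That is 3.14% of members, against 2.66% of all genes tested. The lists describe counts and medians, and a share this near the background is not a result about the lists.

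Immediate early genes, the transcription factors and effectors that neurons induce within minutes of activity, gave 0 members past the adjusted threshold and 1 at an unadjusted p under 0.05. Of 13 tested members 7 were higher and 6 lower, with a median of 0.00 whose sign changed under 14 of 34 alternative settings. Promoters of such genes often carry the CArG box bound by serum response factor, and the TGACG core of the cyclic AMP response element. The 250 bases before the annotated start of Egr2 and Nr4a1 are shown because each gene belongs to 1 of the highest-correlated pairs given below. Egr2 encodes a zinc finger factor and Nr4a1 an orphan nuclear receptor. The sequences are from RefSeq on the rat assembly GRCr8, read 5′ to 3′ on the gene's strand, at chr20:21054442-21054691 on the minus strand for Egr2 and chr7:134259888-134260137 on the plus strand for Nr4a1. Capitals mark a CArG box in Egr2 and TGACG or its reverse complement in Nr4a1. Egr2 also holds a TGACG match, which is not marked.
Egr2: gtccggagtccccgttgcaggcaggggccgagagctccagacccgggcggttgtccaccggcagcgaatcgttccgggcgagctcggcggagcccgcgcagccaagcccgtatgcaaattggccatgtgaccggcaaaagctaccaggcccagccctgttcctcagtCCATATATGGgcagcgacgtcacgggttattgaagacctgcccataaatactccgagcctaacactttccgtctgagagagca
Nr4a1: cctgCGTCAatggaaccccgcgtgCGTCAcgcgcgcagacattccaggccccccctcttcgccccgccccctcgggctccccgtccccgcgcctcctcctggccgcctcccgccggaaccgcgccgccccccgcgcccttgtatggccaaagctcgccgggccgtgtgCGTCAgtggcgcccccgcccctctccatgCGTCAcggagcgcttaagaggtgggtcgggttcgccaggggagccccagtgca
The CArG box of Egr2 starts 83 bases before the gene's start, and the TGACG matches of Nr4a1 start 246, 226, 82 and 53 bases before it. Of the 13 members 8 had a promoter in the RefSeq table. On both strands 2 of the 8, Egr1 and Egr2, held a CArG box and 7 held TGACG. Among all 33469 promoters of this length 1.5% held a CArG box and 18.2% held TGACG. A match describes these letters and is not evidence of binding.

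Fos, the best known immediate early gene, ran from 9.38 (median 11.23) up to 11.66 on clozapine arrays and from 9.23 (median 10.63) up to 12.18 on haloperidol arrays. The groups overlapped, the highest haloperidol array lay above every clozapine array, and the difference was 0.19 (SE 0.40, interval −0.64 to 1.02). Fos differed by 0.74 (SE 0.22, adjusted p of 0.548 in limma) at medium and by −0.40 (SE 0.36) at high. Fos spanned 2.95 log2 units over the 19 arrays, against a median span of 0.749 over probe sets, and 99.5% of probe sets spanned less. Egr1, a zinc finger factor, differed by −0.12 (SE 0.18, interval −0.50 to 0.27). Arc, an effector of synaptic plasticity, differed by 0.09 (SE 0.22, interval −0.38 to 0.56). Egr2 differed by 0.00 (SE 0.38), with a span of 2.88 on clozapine arrays and 2.34 on haloperidol arrays. Nr4a1 differed by 0.00 (SE 0.20) and Egr4 by 0.10 (SE 0.12).

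Many pairs of immediate early genes varied together from array to array once the drug means were taken out. After each array's deviation from its drug mean was taken, the 78 pairs of members had a median correlation of 0.469 over the 19 arrays, and 35 pairs exceeded 0.5. Arc and Nr4a1 had the highest value, 0.896, and Egr2 had 0.874 with Nr4a3, 0.869 with Egr1 and 0.863 with Fos. These are descriptions with no test, and the paired genes share arrays, RNA and sample-number blocks. No such value is given here for pairs of other genes. Ier2 had 0.193 with Fos, and its highest value was 0.486, with Egr4. Jun had 0.036 with Fos and 0.51 with Junb, and the lowest value of all pairs was −0.393, Jun with Egr1. Among the immediate early genes Jun also had the smallest p between the drugs. Jun ran from 12.07 (median 12.26) up to 12.40 with clozapine and from 12.25 (median 12.38) up to 12.53 with haloperidol. All 10 clozapine arrays lay below the haloperidol mean and 5 lay below every haloperidol array, for a difference of −0.17 (SE 0.05, interval −0.28 to −0.06, adjusted p of 0.9997 in limma). Its other probe sets gave −0.10 (SE 0.08) and 0.05 (SE 0.09), and the difference was 0.11 at medium and 0.00 at high.

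**Figure D5:**
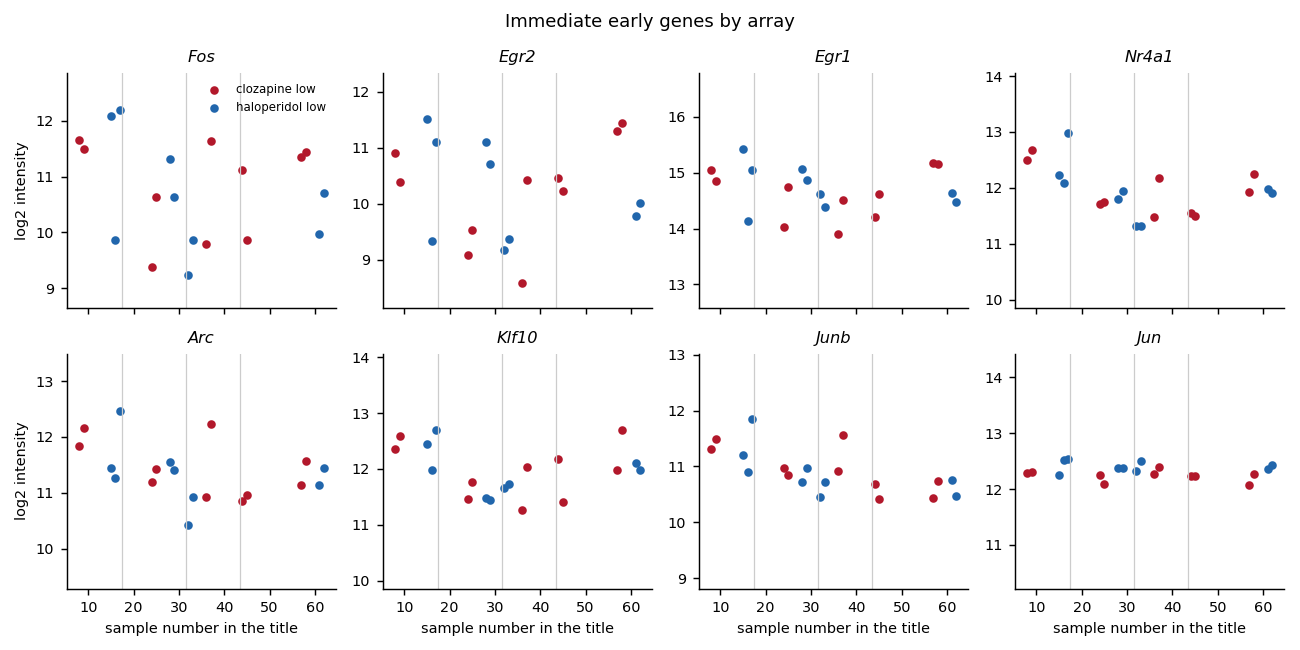
Log2 intensity of 8 immediate early genes on each low clozapine (red) and low haloperidol (blue) array against the sample number in the title; all panels span the same number of log2 units, and grey lines mark the block borders. Fos runs over 2.95 units and Jun over less than 0.5, and red and blue points intermingle in the panels other than Jun, where blue lies mostly above red.

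The late activity-regulated effectors, secreted and signalling proteins that follow the immediate early wave, were mostly higher with clozapine. Of 19 tested 14 were higher and 5 lower, 3 at an unadjusted p under 0.05. Over all genes tested 55.1% were higher and 2.66% had such a p. The list median was 0.12, above 0 under all 34 alternatives, which reuse the same arrays. Within sample-number blocks 1 to 4 the list median was 0.00, 0.07, 0.17 and 0.07. Dusp5, a phosphatase that acts on ERK kinases, ran from 9.39 (median 9.66) up to 9.78 with clozapine and from 8.71 (median 9.37) up to 9.85 with haloperidol. All 10 clozapine arrays exceeded the haloperidol mean, although none exceeded the highest haloperidol array, for a difference of 0.34 (SE 0.11, interval 0.11 to 0.57). Within the sample-number blocks it was 0.24, 0.16, 0.17 and 0.88. Inhba, a subunit of activin, differed by 0.22 (SE 0.08). Bdnf, a growth factor of synaptic plasticity, differed by 0.13 (SE 0.09, interval −0.05 to 0.31). The list median was 0.10 at medium and −0.02 at high.

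Homer1, Etv5, Mfsd4a and Fdft1 were examined because earlier results from these data had set haloperidol apart from vehicle in them. The haloperidol arrays below belong to the same data, so the values are not independent of that choice. Homer1, a postsynaptic scaffold, has 5 tested probe sets, which differed by −0.03, 0.00, 0.14, 0.01 and 0.32. The last, the largest, had an SE of 0.19 and an interval from −0.08 to 0.72. Etv5, an ETS transcription factor, differed by −0.12 (SE 0.11) at low, −0.21 at medium and −0.26 at high, and its second probe set by 0.07 (SE 0.14), −0.09 and −0.21. Mfsd4a, a putative membrane transporter, differed by −0.04 (SE 0.05, interval −0.14 to 0.06) at low and 0.22 at high. Fdft1, squalene synthase, differed by 0.01 (SE 0.05, interval −0.10 to 0.12) at low and 0.20 at high, and its second probe set by −0.02 (SE 0.06) and 0.14.

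Sterol and fatty acid synthesis, pathways often studied with antipsychotics, gave medians near 0. Of 22 sterol genes 8 were higher and 14 lower, 0 at an unadjusted p under 0.05, with a median of −0.01 whose sign changed under 2 of 34 alternatives. Insig1, the sterol-regulated retention protein of the pathway, differed by −0.14 (SE 0.07, interval −0.29 to 0.01), and Mvd, a mevalonate pathway decarboxylase, by 0.13 (SE 0.07). Sc5d entered this list through its brightest probe set. Of 15 fatty acid genes 8 were higher and 7 lower. Scd, a desaturase, differed by 0.14 (SE 0.10), Elovl5, an elongase, by 0.06 (SE 0.04), and Fasn, fatty acid synthase, by −0.06 (SE 0.06, interval −0.19 to 0.08).

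Respiratory chain, proteasome and stress response genes were mostly a little higher with clozapine. Of 33 proteasome subunits 31 were higher, with a median of 0.04 that was 0.02 with the sample-number blocks as a term and 0.00, −0.02, 0.06 and 0.03 within blocks 1 to 4. Psmd4 and Psma2 differed by 0.11 (SE 0.07) and 0.11 (SE 0.08). Of 68 respiratory chain subunits 51 were higher, with a median of 0.03. Uqcrfs1 and Cyc1, both of complex III, differed by 0.11 (SE 0.05) and 0.10 (SE 0.05). Of 22 heat shock and unfolded protein genes 18 were higher, with a median of 0.06, and of 39 ribosomal protein genes 28, with a median of 0.02. Manf, a stress-induced factor of the endoplasmic reticulum, differed by 0.12 (SE 0.06), and Ddit3, a stress transcription factor, by 0.15 (SE 0.08). Rpl14 and Rpl23, ribosomal proteins, both differed by 0.08. Over these 4 lists, of 33, 68, 22 and 39 genes, 1 member had an unadjusted p under 0.05. Over all genes tested 55.1% were higher and 2.66% had such a p. Within sample-number block 2 the respiratory, ribosomal and stress medians were also below 0, at −0.05, −0.04 and −0.03, and members of 1 complex share arrays, so a count of them does not add up as independent evidence.

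Circadian clock genes were mostly lower with clozapine. Of 17 tested 14 were lower, with a median of −0.04, while 4550 of all 10128 genes tested were lower. The list median was below 0 in all 4 sample-number blocks, which divide the same arrays. The median was 0.03 at medium and 0.03 at high. Dbp, a clock output factor, ran from 12.48 (median 12.76) up to 12.85 with clozapine and from 12.60 (median 12.92) up to 13.14 with haloperidol. All 10 clozapine arrays lay below the haloperidol mean, for a difference of −0.16 (SE 0.07, interval −0.31 to −0.01), against −0.08 at medium and 0.28 at high. Bmal1, a core activator of the clock, differed by 0.18 (SE 0.09, interval −0.01 to 0.37). The labels do not state the time of day at which tissue was taken, and its part in these values was not tested. Glucocorticoid-responsive genes split 5 to 5, with Cdkn1a at −0.25 (SE 0.15) and Sgk1 at −0.09 (SE 0.06).

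Lists of neuronal and glial markers, the striatal list aside, had medians within 0.05 of 0. Interneuron markers were higher in 12 of 16, with a median of 0.03. Calb2, calretinin, ran from 9.79 (median 10.25) up to 10.47 with clozapine and from 9.68 (median 10.00) up to 10.22 with haloperidol. Of the clozapine arrays 9 of 10 exceeded the haloperidol mean, for a difference of 0.25 (SE 0.09). Npy differed by 0.10 (SE 0.05), Pvalb by 0.08 (SE 0.06) and Gad1, the GABA-synthesising enzyme, by 0.01 (SE 0.05, interval −0.10 to 0.12). Glutamatergic and layer markers split 8 to 8, with Rasgrf2 of upper-layer neurons at −0.22 (SE 0.09) and Slc17a6, a vesicular glutamate transporter, at 0.18 (SE 0.11).

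Striatal neuron markers had a median of 0.06, with 9 of 13 higher, and it was 0.37 within sample-number block 1. The summed level of the list, as a mean of centred log2 values, ran from −0.16 to 0.45 on clozapine arrays and from −0.13 to 0.12 on haloperidol arrays. The clozapine array with the highest Drd2, at 10.22, came from that block. Drd2 is itself a member of the striatal list, and the part of striatal tissue in its difference was not tested. Tac1, the substance P precursor, differed by 0.19 (SE 0.10).

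Glial lists showed no common direction. Astrocyte markers were higher in 10 of 17, with Ndrg2 at 0.13 (SE 0.07) and Aldoc at 0.08 (SE 0.04). Oligodendrocyte markers were lower in 11 of 19, with Gal3st1, a sulfatide-synthesising enzyme, at −0.29 (SE 0.16) and Enpp2 at −0.12 (SE 0.07). The median of that list was 0.21 and 0.25 within blocks 1 and 3 and −0.23 within block 4. Of 9 oligodendrocyte precursor markers 5 were higher and 4 lower, with a median of 0.01, and Olig1 and Olig2 of that list differed by −0.03 (SE 0.11) and −0.06 (SE 0.22). C1qc, a complement subunit made by microglia, differed by 0.29 (SE 0.10, interval 0.08 to 0.50), with 7 clozapine arrays above every haloperidol array, and Ctss, a microglial protease, by −0.12 (SE 0.07).

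Vessel and blood transcripts lay on opposite sides of 0. Endothelial and mural markers were higher with clozapine in 14 of 19, 2 at an unadjusted p under 0.05. Over all genes tested 55.1% were higher and 2.66% had such a p. The list median of 0.10 stayed above 0 under all 34 alternatives, which reuse the same arrays. Within sample-number blocks 1 to 4 it was 0.18, 0.13, 0.04 and 0.03. Myl9, a smooth muscle myosin light chain, differed by 0.21 (SE 0.09) and Slco1c1, a thyroid hormone transporter of brain endothelium, by 0.11 (SE 0.05). The 3 tested blood genes were all lower, with a median of −0.27. Hbb, a beta globin, was at 13.11 and 12.92 on clozapine replicates 9 and 10, against at least 14.93 on the other 8 clozapine arrays. On haloperidol arrays Hbb ran from 14.64 (median 15.23) up to 15.85, and its difference was −0.27 (SE 0.35, interval −0.997 to 0.45). Hba-a3, an alpha globin, was lowest on the same 2 clozapine arrays, at 10.01 and 9.13, and differed by −0.53 (SE 0.33). Without the 4 arrays numbered over 53 the blood median was 0.22, so its direction rests on those arrays. Lum and Col1a2, markers of meningeal fibroblasts, differed by 0.16 (SE 0.13) and −0.15 (SE 0.15).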

How the data were processed

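Affymetrix arrays of rat frontal cortex RNA were analysed, 10 low clozapine and 9 low haloperidol, with 35 medium and high dose arrays of the same drugs and 9 vehicle arrays for description. The deposited table holds 1 linear intensity per probe set and array. The software that the authors used is not given in the sources used here. Scaling was read from the values: trimmed means were nearly equal on every array. The members and gene lists were chosen with earlier results of these data known.

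Intensities were quantile-normalised over the 63 neuroleptic arrays, floored at 32 and log2-transformed. After removal of 57 controls, the 60% of the remaining 31042 with the highest mean, 18625, were tested. Of the deposited intensities on the 19 arrays compared, 5.87% lay below the floor. Two-sided tests used limma 3.58.1 (lmFit and eBayes) under R 4.3.3, 1 mean per group and no covariate, with Benjamini-Hochberg adjustment over all probe sets tested and a call at an adjusted p under 0.05. The medium and high levels were fitted alone, and the dependence on dose level came from 1 fit of the 6 drug groups. Figures were drawn with matplotlib 3.10.9.

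Symbols came from the platform annotation: 20826 probe sets had 1 symbol, 436 several and 9780 none, and updating by gene identifier changed 0. Named genes were any called (there were none), 10 genes per direction by smallest p, the 2 list members with the smallest p and 24 genes of prior interest, of which 21 were tested. The 10 genes per direction are given by their probe set of smallest p, all others by their brightest probe set.

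No 2 arrays held identical values, with 0 identical pairs and pair correlations of 0.948 to 0.987. Simulated data had 18625 probe sets of independent normal noise, each with its mean and residual spread on the low clozapine and low haloperidol arrays. With 50 changed at each size, all together, limma recovered 36% of changes of 0.25, 74% of 0.5, 90% of 0.75 and 98% of 1. There were 11 false calls. Neither sample-number blocks nor correlation between genes were simulated, and recovery with fewer changed probe sets was not tried. Alternatives varied the normalisation, floor, filter, groups fitted, sample-number terms, array weights, variance trend and arrays.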

Additional observations from a re-analysis of the deposited data

Results flagged for a closer look

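Within the 2 groups of the 98 named genes, 196 groups were examined for 1 array far from the others, judged by its gap to the nearest array over the range of the group. There were 11 such arrays (5.61%), and chance gives about 1 in 20. Haloperidol replicate 2 and clozapine replicate 1 each had 2 of them and 7 other arrays had 1 each. All values are log2 intensities.

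On low clozapine arrays, Sc5d was highest on replicate 9, at 11.34 against 10.86 on the next. Vamp1 was highest on replicate 4, at 14.43 against 14.14. Drd2 was highest on replicate 1, at 10.22 against 9.59. Rgs10 was lowest on replicate 2 (12.85), Uqcrfs1 on replicate 1 (14.57), Gal3st1 on replicate 8 (7.91), Cdkn1a on replicate 5 (8.40) and Lum on replicate 6 (9.35). On low haloperidol arrays, Tmem120a was lowest on replicate 2, at 8.73 against 9.25 on the next. Col1a2 was also lowest on replicate 2 (10.33), and Lsm11 was lowest on replicate 3 (11.16). What set these arrays apart was not tested.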

How the results depend on the processing

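No paired analysis was possible because the labels give the arrays no replicate numbers, and those used here only follow the sample numbers. limma called 0 probe sets in the low comparison under every alternative run, with smallest adjusted p-values from 0.226 to 1. The 596 probe sets at an unadjusted p under 0.05 became 1119 without the filter and 357 with the brightest 40% of probe sets, since more or fewer were tested. They became 1572 with the 4 sample-number blocks as a term, 1328 with 5 blocks and 1013 without the 4 arrays numbered over 53, the last 2 chosen after seeing the data. Leaving out 1 array at a time gave 478 to 814. The sign of all 20 leading genes was kept under every alternative that tested them, of which the 40% filter tested 8. The genes were picked by p on the same arrays, so kept signs are no further support. For the low minus medium difference, the blocks gave 675 in place of 362, and with the blocks the medium and high comparisons gave 2062 in place of 1238 and 1029 in place of 1604. List medians moved by more than the spread between arrays within single blocks, where the cause was not tested. In block 1 these were GABA-A −0.0936, fatty acid 0.0593, striatal 0.370 and oligodendrocyte 0.208. In block 2 they were metabotropic 0.0559, channels 0.0596, presynaptic 0.133, clock −0.153, heat shock −0.0309, respiratory −0.0488 and ribosomal −0.0429. In block 3 they were serotonin 0.146, sterol 0.0771, oligodendrocyte 0.251 and meningeal −0.256. In block 4 they were serotonin −0.216, fatty acid −0.0574, glutamatergic 0.0821, interneuron 0.100, glucocorticoid −0.0952 and heat shock 0.126. Without the 4 arrays numbered over 53 the serotonin median was 0.0904. Of 3626 values of single genes 96 moved beyond the spread, and 0 of those with an adjusted p passed the threshold. Values within single blocks and means over the probe sets of a gene had no such p.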
